A study of Mus musculus with 2 samples.

Results

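The *Trim5* and *Trim30* antiviral locus is a cluster of related genes on mouse chromosome 7, and 7 of its genes, *Trim5*, *Trim12a*, *Trim12c*, *Trim30a*, *Trim30b*, *Trim30d* and *Trim34a*, were followed here among the 50768 genes of the single-cell count tables. They were listed because *Trim5* stood high in NOD/ShiLtJ macrophages against CD1 macrophages in an earlier reading of the same counts, so that this contrast is given as a description. The question was whether the neighbouring genes followed *Trim5* or changed in the opposite direction. Of the 7 genes, 5 reached 20 unique molecular identifiers (UMIs, tags that count captured RNA molecules) over both strains in each of the 4 cell classes compared, whereas *Trim12a* and *Trim30b* were close to 0 throughout.

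TRIM proteins carry a RING domain that attaches ubiquitin, a B-box and a coiled coil, and many also carry a SPRY domain that binds a target. In primates, TRIM5 recognises the capsid of incoming retroviruses, and the mouse genes *Trim5*, *Trim12a* and *Trim12c* are its closest relatives. *Trim34a* and *Trim34b* are relatives of the human TRIM34 gene, and *Trim30a*, with its duplicates *Trim30b*, *Trim30c* and *Trim30d*, is a rodent gene known to be induced by interferon in macrophages.

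Single-cell RNA sequencing (scRNAseq) was made on 1 library per strain, from the pooled submandibular and sublingual salivary glands of female mice aged 20 weeks. NOD/ShiLtJ is an inbred strain that develops diabetes and a Sjögren-like salivary gland disease, and CD1, the control, is outbred, so that its pool may hold several forms of a locus. Neither group was treated, both carry the same batch label, and cells bearing EpCAM or Ter119 were removed with magnetic beads. The labels give 3 mice per pool and the methods of the study give 4, and the mice of a pool cannot be told apart, so neither strain has a replicate and strain differences were not tested.

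The NOD library held 6500 barcodes and the CD1 library 7014 with at least 500 UMIs and 300 genes, at a median of 5719.5 and 6495 UMIs. Of these, 18 had the same barcode sequence in both libraries. Barcodes were classed by the UMIs of marker genes, and 1594 NOD and 761 CD1 barcodes stayed without a class. Macrophage-like barcodes numbered 691 in NOD and 2899 in CD1, T-like 1707 and 75, NK-like 439 and 282, and endothelial-like 1055 and 2886. All of their own markers were detected in each of these classes in both libraries. Many barcodes led by T or NK markers lay near the minimum share of 75% of marker UMIs. A share between 65% and 85% was held by 747 NOD and 41 CD1 barcodes led by T markers, and by 265 and 147 led by NK markers. These counts do not say which other markers made up the rest. The labels call the cells stromal enriched, but the fibroblast-like class held only 61 NOD and 18 CD1 barcodes. Levels are UMIs per 1000000 UMIs of a class (CPM) with exact 95% Poisson intervals, and strain ratios are given as log2 of NOD/ShiLtJ over CD1 with 95% binomial intervals, in brackets. Both cover counting error only. UMIs were not divided by transcript length, so levels are compared between strains and classes, not between genes.

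Close likeness of the promoters was limited to some groups of the locus. In windows of 250 bases before to 50 after the start, *Trim5*, *Trim12a* and *Trim12c* matched pairwise at 93.9% to 100% of aligned bases and *Trim30a* and *Trim30d* at 93.9%, whereas *Trim34a* and *Trim34b* matched at 66.5% and *Trim30a* and *Trim30b* at 57.5%. Below are the 80 bases directly before the annotated start of 4 genes of the *Trim5* and *Trim30* groups, shown because each pair is alike in sequence while its strain ratios, given further on, differ, with the core of the interferon-stimulated response element (GAAANNGAA, here on the opposite strand as TTCNNTTTC) in capitals. They are RefSeq sequences of the reference mouse genome, build GRCm38.p6, minus strand, and not those of NOD/ShiLtJ or CD1 mice. *Trim5* lies at chr7:104288107-104288186, *Trim12c* at chr7:104353350-104353429, *Trim30a* at chr7:104465194-104465273 and *Trim30d* at chr7:104507850-104507929.
Trim5: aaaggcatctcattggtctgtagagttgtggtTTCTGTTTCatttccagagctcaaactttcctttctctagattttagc
Trim12c: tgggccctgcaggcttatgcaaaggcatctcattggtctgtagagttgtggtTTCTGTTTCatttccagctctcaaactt
Trim30a: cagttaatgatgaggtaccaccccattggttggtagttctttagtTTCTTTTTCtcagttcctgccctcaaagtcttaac
Trim30d: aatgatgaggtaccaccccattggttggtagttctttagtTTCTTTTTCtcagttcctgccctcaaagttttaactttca

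The *Trim5* and *Trim12c* stretches matched at 58 of 60 aligned bases and the *Trim30a* and *Trim30d* stretches at 74 of 75. The response element core began 48 bases before the start of *Trim5*, 28 before *Trim12c*, 35 before *Trim30a* and 40 before *Trim30d*. In the 300-base windows, it was found on either strand for 6 of the 7 genes, *Trim30b* lacking it, and in 8.56% of 32851 promoter windows of the whole genome. The window of *Trim12a* is that of *Trim5* moved by 59 bases, with 241 bases identical. The gamma-activated site TTCNNNGAA, which reads the same on both strands, was found in 8.30% of all windows and at the locus only in that of *Trim30c*. A match of letters is not a measured binding site.

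Transcript similarity bears on how reads are assigned. In the GENCODE M21 transcripts, the longest *Trim5* and *Trim12c* transcripts matched at 96.2% of 3638 aligned bases, those of *Trim34a* and *Trim34b* at 98.7% of 1827 and those of *Trim30a* and *Trim30d* at 87.4% of 3038. Stretches of 91 bases that were identical in both genes made up 8.22% of those of *Trim5* and 8.63% of those of *Trim12c*, 23.75% of *Trim34a* and 34.4% of *Trim34b*, and 4.61% of *Trim30a* and 4.81% of *Trim30d*. In the last 500 bases, no such stretch of *Trim5*, *Trim12c*, *Trim34a*, *Trim30a* or *Trim30d* was shared with another gene of the locus, whereas 28.8% of those of *Trim34b* were. The values of these genes are therefore uncertain where reads could pass between near-identical copies, and this was not tested against the sequences of the strains.

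*Trim5* was almost absent from the CD1 library and present in each well-filled class of the NOD library. In macrophage-like barcodes it had 67 UMIs in NOD, or 17.0 CPM (13.2 to 21.6), and 4 UMIs in CD1, or 0.204 CPM (0.0555 to 0.522), a log2 ratio of 6.38 [4.96, 8.30]. This is the value the gene was chosen on, and 17 of the 14391 genes with at least 20 UMIs had a higher ratio. In endothelial-like barcodes it had 203 UMIs in NOD (34.1 CPM, 29.6 to 39.1) and 2 in CD1 (0.104 CPM, 0.0126 to 0.375), and the log2 ratio was 8.36 [6.49, 11.41]. In NK-like barcodes there were 92 UMIs in NOD (24.3 CPM) and 1 in CD1 (0.313 CPM), with a log2 ratio of 6.28 [3.77, 11.60], or 4.91 at 90% marker purity. In T-like barcodes the 318 UMIs in NOD (28.0 CPM) stood against 0 in CD1, which allows up to 5.22 CPM, so that the NOD level was at least 5.37-fold higher. With the counting error of the NOD level included, the lower 95% limit of this log2 ratio was 2.12. *Trim5* UMIs were seen in 57 of 691 NOD macrophage-like barcodes (8.25%, 6.31 to 10.6) and in 4 of 2899 in CD1 (0.138%, 0.0376 to 0.353), although the median depth was 3050 UMIs in NOD and 7028 in CD1. After thinning each barcode to 500 UMIs, 6 of 691 and 1 of 2899 had one. The empty droplets of the NOD library held *Trim5* at 25.1 CPM (20.9 to 29.96) and those of CD1 held 0 UMIs. The macrophage-like and NK-like levels in NOD were thus below that of the NOD empty droplets. The intervals of T-like (25.0 to 31.3) and endothelial-like barcodes (29.6 to 39.1) overlapped that of the empty droplets. The part of free RNA in these levels was not tested beyond the subtraction given under the processing alternatives.

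**Figure D1:**
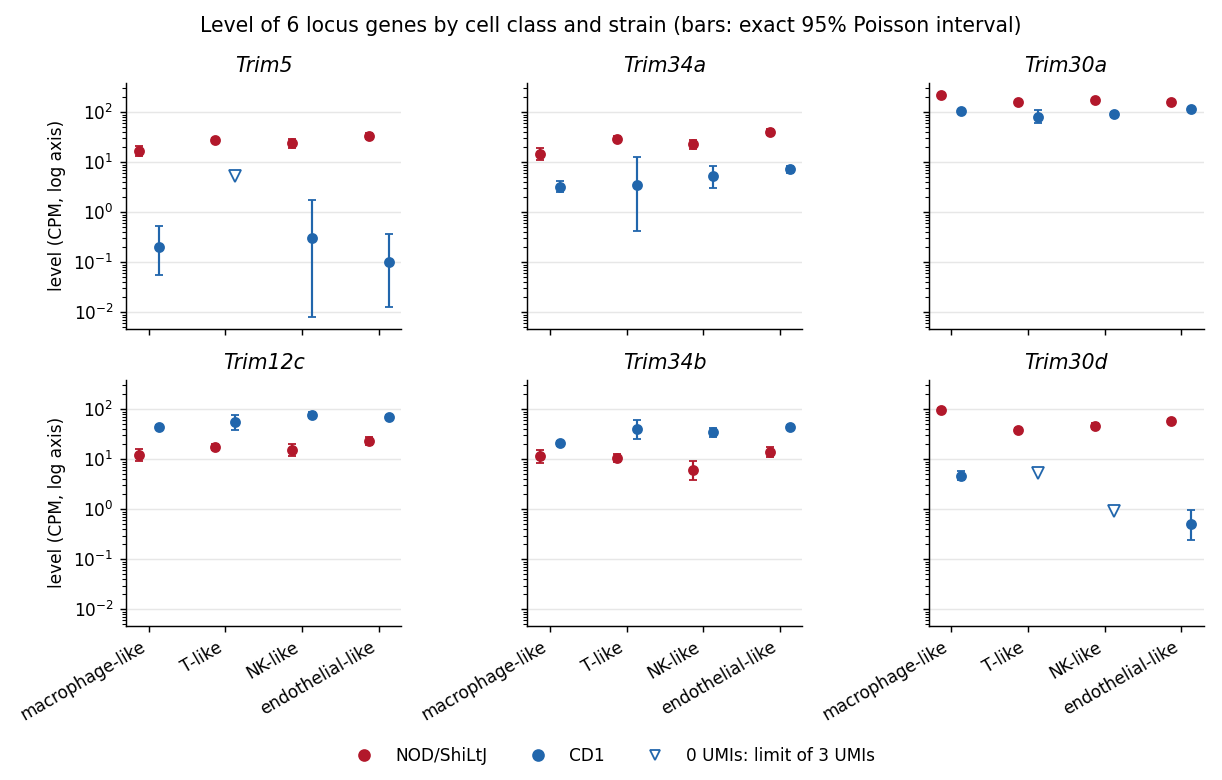
Level of 6 genes of the locus (CPM, log axis) in the 4 cell classes, NOD/ShiLtJ in red and CD1 in blue, with exact 95% Poisson intervals as bars and the limit of 3 UMIs as an open triangle where a library had 0 UMIs. *Trim5*, *Trim34a* and *Trim30d* lie higher in NOD in each class, *Trim12c* and *Trim34b* lie lower, and *Trim30a* lies between 81.8 and 219 CPM in both libraries over these 4 classes.

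*Trim12c*, the close relative of *Trim5* in the same gene group, went the other way. It had 49 UMIs in NOD macrophage-like barcodes (12.4 CPM, 9.20 to 16.4) and 873 in CD1 (44.5 CPM, 41.6 to 47.5), a log2 ratio of −1.84 [−2.29, −1.42], or −2.49 with each barcode weighted equally. The log2 ratio was −1.63 [−2.17, −1.05] in T-like barcodes (204 UMIs in NOD, 32 in CD1), −2.34 [−2.78, −1.92] in NK-like barcodes (58 and 248) and −1.63 [−1.89, −1.38] in endothelial-like barcodes (138 and 1382). *Trim12c* therefore remained measurable in NOD, at 12.4 to 23.2 CPM across the 4 classes, and *Trim5* in CD1 had at most 4 UMIs in any of them. Empty droplets held *Trim12c* at 8.37 CPM (6.01 to 11.4) in NOD and at 41.5 CPM (34.9 to 49.0) in CD1, a log2 ratio of −2.31 [−2.85, −1.80]. Both level intervals overlapped those of macrophage-like barcodes, and the CD1 interval also that of T-like barcodes (38.1 to 78.7). The macrophage-like levels were thus not set apart from free RNA, and its part was not tested beyond the subtraction given under the processing alternatives. *Trim5* made up 57.8% of the *Trim5*, *Trim12a* and *Trim12c* UMIs in NOD macrophage-like barcodes (48.2 to 66.9), 60.7% in T-like, 61.3% in NK-like and 74.5% in empty droplets, against 0.456% in CD1 macrophage-like barcodes. *Trim12a* had 7 UMIs in all 6500 NOD barcodes and 2 in all 7014 CD1 barcodes.

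The *Trim34* pair also moved in opposite directions. *Trim34a* had 58 UMIs in NOD macrophage-like barcodes (14.7 CPM, 11.2 to 19.0) and 64 in CD1 (3.26 CPM, 2.51 to 4.17), a log2 ratio of 2.17 [1.64, 2.71]. The empty droplets held it at 25.5 CPM (21.2 to 30.4) in NOD and at 1.48 CPM (0.482 to 3.46) in CD1. The NOD value was above the macrophage-like and NK-like levels (22.8 CPM in NK-like), and its interval overlapped that of T-like barcodes (26.6 to 33.1). The part of free RNA in these NOD levels was not tested beyond the same subtraction. The log2 ratio was 3.09 [1.23, 6.14] in T-like barcodes (337 and 2 UMIs), or 1.83 at 90% marker purity, 2.09 [1.33, 2.94] in NK-like (86 and 17) and 2.49 [2.18, 2.80] in endothelial-like barcodes (241 and 139). Its twin *Trim34b*, which was not on the list, was lower in NOD. Its log2 ratio was −0.83 [−1.30, −0.39] in macrophage-like, −1.91 [−2.56, −1.20] in T-like, −2.51 [−3.23, −1.86] in NK-like and −1.68 [−2.02, −1.35] in endothelial-like barcodes. Macrophage-like barcodes held *Trim34b* at 11.7 CPM in NOD and 20.7 CPM (18.8 to 22.9) in CD1. Empty droplets held it at 10.6 CPM (7.93 to 13.9) and 25.5 CPM (20.4 to 31.5), so the macrophage-like levels were not set apart from free RNA. *Trim34a* made up 55.8% of the UMIs of the pair in NOD macrophage-like barcodes and 13.6% in CD1, and 73.6% and 8.0% in T-like barcodes.

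Summed over the pair, the strains differed little. *Trim34a* and *Trim34b* together reached 26.4 CPM in macrophage-like barcodes of NOD and 24.0 CPM in those of CD1, a log2 ratio of 0.14 [−0.18, 0.45]. They reached 54.4 and 51.8 CPM in endothelial-like barcodes, a log2 ratio of 0.07 [−0.11, 0.25]. The interval also held 0 in T-like barcodes (−0.11 [−0.69, 0.53]), but not in NK-like barcodes (−0.48 [−0.86, −0.10]). At 90% marker purity the NK-like value was 0. Over all kept barcodes the pair summed to 37.8 CPM in the NOD and 37.6 in the CD1 library. In empty droplets the pair summed to 36.1 CPM in NOD and 27.0 in CD1. The sum of *Trim5*, *Trim12a* and *Trim12c* was lower in NOD in each class, at log2 −0.60 [−0.90, −0.32] in macrophage-like, −0.27 [−0.79, 0.29] in T-like, −0.98 [−1.28, −0.68] in NK-like and −0.31 [−0.49, −0.14] in endothelial-like barcodes. The ratio of a sum always lies between the ratios of its genes, so a smaller value than that of *Trim5* was fixed in advance and is no result.

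**Figure D2:**
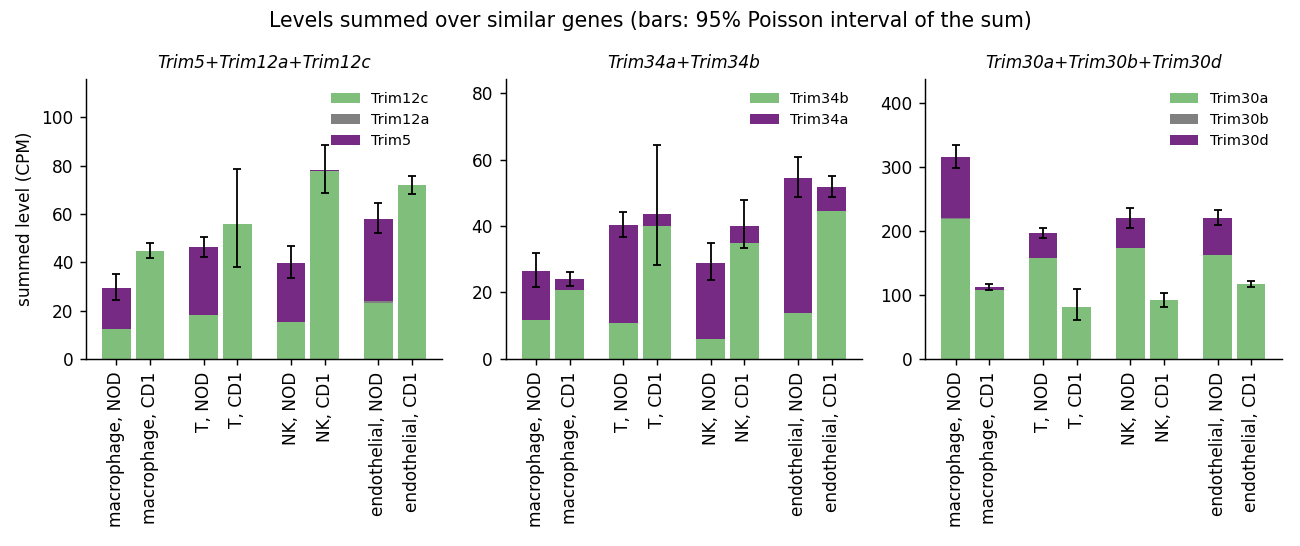
Summed level (CPM) of 3 sets of similar genes in each class and strain, with the share of each gene stacked and the 95% Poisson interval of the sum as the bar. The *Trim34* sums of the strains differ by 0.14 on the log2 scale in macrophage-like barcodes although their make-up differs, and the *Trim30* sum is higher in NOD in each of the 4 classes.

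In the *Trim30* group, *Trim30d* had a larger strain ratio than *Trim30a* in each of the 4 classes. *Trim30d* had 379 UMIs in NOD macrophage-like barcodes (96.2 CPM, 86.7 to 106.4) and 93 in CD1 (4.74 CPM, 3.82 to 5.81), a log2 ratio of 4.34 [4.01, 4.69]. In endothelial-like barcodes there were 349 UMIs (58.6 CPM) and 10 (0.519 CPM, 0.249 to 0.955), a log2 ratio of 6.82 [5.92, 7.89], or 10.29 after subtraction of free RNA. That subtraction removes nearly all of the 10 CD1 UMIs and leaves fewer than the limit of 3 UMIs, so 10.29 is not read as a measured ratio. NK-like barcodes held 175 UMIs in NOD (46.3 CPM) and 0 in CD1, at least 49.3-fold higher, and T-like barcodes 440 (38.8 CPM) and 0, at least 7.42-fold higher. With the counting error of the NOD level included, the lower 95% limits of these log2 ratios were 5.31 and 2.59. Of the 115 *Trim30d* UMIs in the CD1 barcodes, 93 lay in the macrophage-like class, in 65 of its 2899 barcodes (2.24%), and the intervals of its macrophage-like and endothelial-like CD1 levels did not overlap. The CD1 empty droplets held *Trim30d* at 4.75 CPM, or 16 UMIs, close to the level of the macrophage-like class, and those of NOD held it at 31.4 CPM (26.7 to 36.8), below each of the 4 NOD levels, with an interval that overlaps that of T-like barcodes (35.3 to 42.6).

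*Trim30a*, the most studied gene of the group, was expressed in both strains. It had 865 UMIs in NOD macrophage-like barcodes (219 CPM, 205.1 to 234.6) and 2110 in CD1 (107.5 CPM, 103.0 to 112.2), a log2 ratio of 1.03 [0.91, 1.14]. The ratio was 0.95 [0.53, 1.40] in T-like barcodes (1792 and 47 UMIs), 0.91 [0.71, 1.12] in NK-like (656 and 294) and 0.47 [0.36, 0.58] in endothelial-like barcodes (965 and 2256). Every interval lay above 0, but only the macrophage-like ratio reached 2-fold, and it was 0.72 when each barcode was weighted equally. Empty droplets held *Trim30a* at 134.5 CPM (124.4 to 145.2) in NOD and 81.9 CPM (72.5 to 92.1) in CD1, a log2 ratio of 0.72 [0.51, 0.92]. The CD1 T-like level, 81.8 CPM (60.1 to 108.8), was close to that of the CD1 empty droplets. The part of free RNA in these levels and ratios was not tested beyond the subtraction given under the processing alternatives. *Trim30b* had 1 UMI in NOD and 2 in CD1 macrophage-like barcodes and 9 UMIs in NOD B-like barcodes. The summed *Trim30a*, *Trim30b* and *Trim30d* level was higher in NOD by log2 1.49 [1.39, 1.59], 1.27 [0.85, 1.71], 1.26 [1.06, 1.45] and 0.91 [0.81, 1.01] in the macrophage-like, T-like, NK-like and endothelial-like classes, and the higher *Trim30d* of NOD was not set against a lower *Trim30a*.

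The remaining *Trim* genes of the locus were low. *Trim6* was found almost only in endothelial-like barcodes, with 106 UMIs in NOD (17.8 CPM) and 164 in CD1 (8.51 CPM), a log2 ratio of 1.06 [0.70, 1.43], and had at most 3 UMIs in either library in the other 3 classes. *Trim30c* had 22 UMIs in NOD and 47 in CD1 macrophage-like barcodes, a log2 ratio of 1.22 [0.42, 1.98]. *Trim30e-ps1*, a pseudogene, had 5 and 2 there.

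Set against all genes, the shift of the locus was uneven in direction. Among 14391 genes with at least 20 UMIs in macrophage-like barcodes, 7.69% were at least 2-fold higher in NOD and 5.52% at least 2-fold lower. Of the 5 listed genes with that depth, 4 were higher (*Trim5*, *Trim30a*, *Trim30d*, *Trim34a*) and 1 was lower (*Trim12c*). In T-like barcodes, 9.0% of genes were higher and 5.64% lower, in NK-like barcodes 5.48% and 4.35%, and in endothelial-like barcodes 7.80% and 3.96%. In each of these 3 classes, 3 of the 5 genes were higher and 1 was lower, and *Trim30a* stayed within 2-fold. Of 10342 genes with enough UMIs in all 4 classes, 50 (0.483%) were higher in NOD in each class and 24 (0.232%) were lower in each. *Trim5*, *Trim30d* and *Trim34a* were among the former and *Trim12c* among the latter. Because *Trim5* chose the list, nothing is read from these counts.

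Most genes on either side of the locus lay within 2-fold, as did most genes of each class. Of the 20 flanking genes with at least 20 UMIs in macrophage-like barcodes, 10 on each side, 17 lay within 2-fold, with a median log2 ratio of −0.08 and a range of −3.36 to 0.90, and over all genes of the class 86.8% were not past 2-fold. The exceptions were *Trim68* (7 and 153 UMIs, −2.13 [−3.47, −1.06]), the globin gene *Hbb-bs* (1 and 33 UMIs) and *Apbb1* (1 and 51 UMIs), and each was lower in NOD. In endothelial-like barcodes 17 of 20 lay within 2-fold (88.2% of all genes), with a median of −0.02, and the exceptions were *Trim68* (20 and 221 UMIs, −1.77 [−2.51, −1.11]), *Hbb-bs* (1.84 [1.44, 2.25]) and *Gm22504* (2.32 [1.24, 3.44]). In T-like barcodes 13 of 17 lay within 2-fold (85.4% of all genes were not past it), beside *Trim68* (−1.72), *Pgap2* (−1.19) and *Rnf121* (1.90), and *Gm22504*, with 38 and 0 UMIs, had no ratio. In NK-like barcodes 14 of 16 did (90.2% of all genes), beside *Trim68* (−2.07) and *Pgap2* (−1.82). *Trim68*, the second gene to the left with that depth, was thus lower in NOD in each of the 4 classes.

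**Figure D3:**
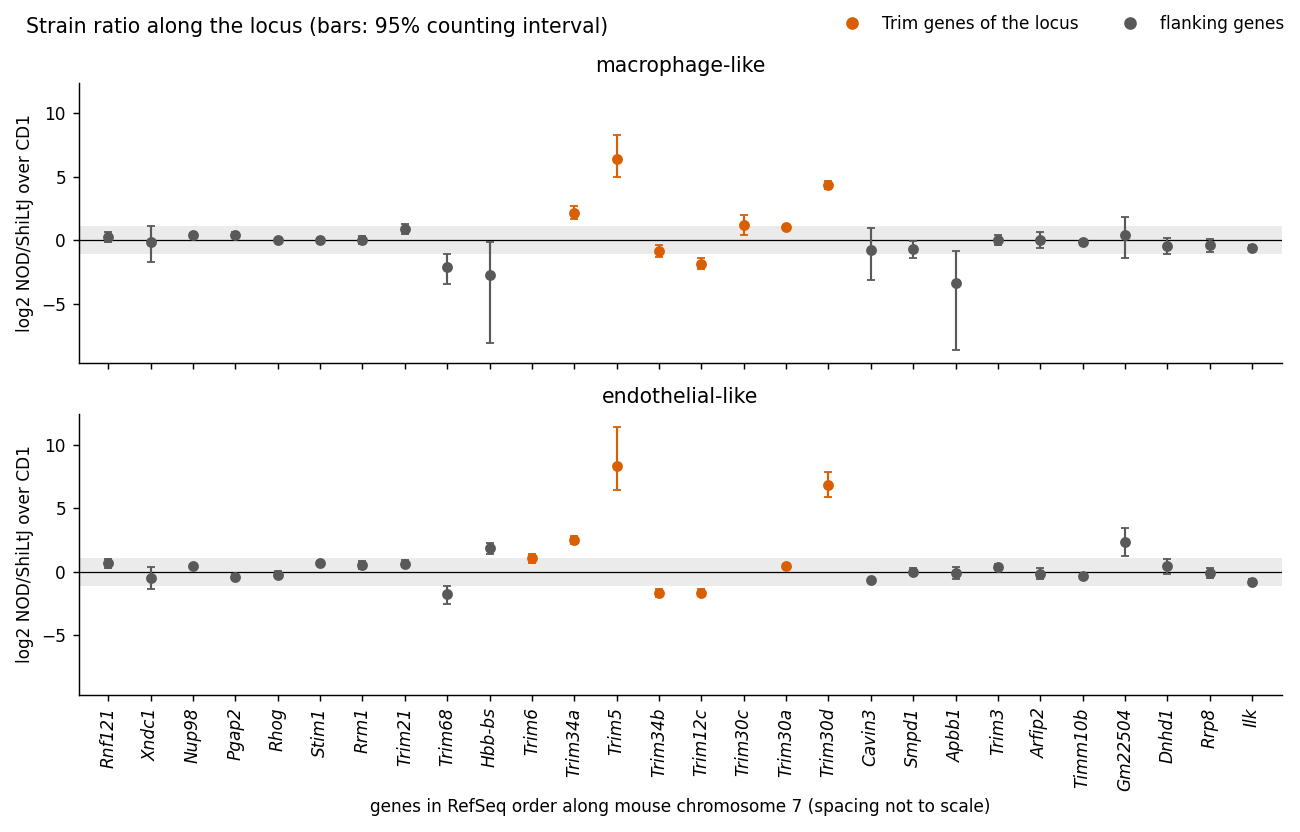
Log2 ratio of NOD/ShiLtJ over CD1 for the *Trim* genes of the locus (orange) and 10 flanking genes on each side (grey), in their order along the chromosome, in macrophage-like and endothelial-like barcodes, with 95% counting intervals and the range within 2-fold shaded. In macrophage-like barcodes *Trim5* stands at 6.38 and *Trim12c* at −1.84, while 17 of 20 flanking genes lie in the shaded range.

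Interferon-response genes were higher in NOD as a group. Of 32 such genes, 23 were at least 2-fold higher in NOD in macrophage-like barcodes and 0 were lower, with a median log2 ratio of 1.29 against 0.05 over all genes. The counts of higher genes were 17 of 31 in T-like, 14 of 30 in NK-like and 17 of 31 in endothelial-like barcodes, with medians of 1.14, 0.93 and 1.04 and 0 lower genes. With the 2 genes that had no CD1 UMI set at their bound, the T-like median was 1.12. In macrophage-like barcodes the highest ratios were those of *Ifi44* (5.09 [4.16, 6.15]), *Rsad2*, which encodes the antiviral enzyme viperin (2.64 [2.41, 2.87]), and *Oas3*, a sensor of double-stranded RNA (2.08 [1.62, 2.55]). The lowest were those of *Irf9*, an interferon regulatory factor (0.21), *Phf11b* (0.35) and *Oas1a* (0.44). In endothelial-like barcodes *Oas2* (2.42), *Zbp1* (2.32) and *Rsad2* (2.07) led, and *Xaf1* (0.37), *Rtp4* (0.44) and *Ddx60* (0.47) came last. In NK-like barcodes *Ifi44* (3.22), *Rsad2* (2.72) and *Mx1* (1.99) led, and *Xaf1* (−0.48), *Ddx60* (−0.21) and *Eif2ak2* (0.09) came last. In T-like barcodes *Ifit3* (3.83 [1.34, 9.13]), *Rsad2* (2.73 [0.23, 8.04]) and *Oasl2* (2.72 [0.21, 8.03]) had the highest measured ratios, each against 1 CD1 UMI, and *Xaf1* (0.32), *Usp18* (0.49) and *Phf11b* (0.57) came last. *Ifit3b* (77 and 0 UMIs) and *Oas2* (33 and 0) had no ratio there, and the NOD level of *Oas2*, 2.91 CPM, was below the 5.22 CPM that 0 CD1 UMIs allow.

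A list of 20 other *Trim* genes mostly lay within 2-fold. It holds *Trim21*, which is also a flanking gene, the third to the left, and leaves out the flanking genes *Trim68* and *Trim3*. The counts hold 69 genes named *Trim*, and the 20 were chosen with earlier results of these data known. In macrophage-like, NK-like and endothelial-like barcodes 0 were past 2-fold in either direction, beside 86.8%, 90.2% and 88.2% of all genes that were not, and their median log2 ratios were −0.07, 0.12 and 0.18. In T-like barcodes 1 of 19 was higher, *Trim39* with 153 and 2 UMIs, and the median was 0.38, or 0.36 with *Trim32* (68 and 0 UMIs) at its bound. In macrophage-like barcodes the highest were *Trim21*, an intracellular antibody receptor (0.90 [0.51, 1.27]), *Trim14* (0.55) and *Trim65* (0.49), and the lowest *Trim11* (−0.34), *Trim28* (−0.31) and *Trim41* (−0.25). In endothelial-like barcodes *Trim21* (0.66), *Trim14* (0.61) and *Trim8* (0.50) were highest and *Trim27* (−0.35), *Trim35* (−0.27) and *Trim37* (−0.22) lowest. In NK-like barcodes *Trim56* (0.76), *Trim39* (0.52) and *Trim33* (0.46) were highest and *Trim59* (−0.84), *Trim27* (−0.32) and *Trim24* (−0.11) lowest, and in T-like barcodes *Trim56* (−0.15), *Trim59* (−0.05) and *Trim37* (−0.05) were lowest and *Trim39* (1.95 [0.08, 5.01]), *Trim65* (0.97 [−0.10, 2.29]) and *Trim11* (0.81 [−0.13, 1.95]) had the highest measured ratios.

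To set the locus beside the interferon response, the pooled macrophage-like barcodes of both strains were divided into 3 equal parts by their share of UMIs from the 32 interferon-response genes. The low group held 88 NOD and 1109 CD1 barcodes, the middle group 147 and 1049, and the high group 456 and 741. *Trim30a* was higher from the low to the high group in both strains, from 83.8 to 138 and 252 CPM in NOD and from 58.9 to 85.03 and 206 CPM in CD1. Within the parts the log2 ratio of the strains was 0.51 [−0.26, 1.19], 0.70 [0.39, 0.98] and 0.29 [0.15, 0.43], beside 1.03 [0.91, 1.14] over the whole class. The interval of the high group lay below that of the whole class, and those of the low and middle groups overlapped it. In the high group the interferon-response share itself was 4293 CPM in NOD and 3399 in CD1.

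*Trim30d* was higher in NOD in each of the 3 parts. It stood at 41.9, 45.5 and 114 CPM in NOD and at 1.57, 1.70 and 13.8 CPM in CD1, with log2 ratios of 4.74 [3.27, 6.20], 4.74 [3.82, 5.74] and 3.05 [2.68, 3.45]. Of the 93 CD1 UMIs, 69 lay in the high group. *Trim5* in NOD was 14.0 (2.88 to 40.8), 17.2 (9.41 to 28.9) and 17.2 CPM (12.7 to 22.6), intervals that overlap. These parts divide the UMIs on which the gene was chosen, 3 in NOD and 1 in CD1 in the low group, 14 and 1 in the middle and 50 and 2 in the high group, so they are a description and no further support for its ratio. *Trim12c* in CD1 was 32.1, 41.7 and 64.8 CPM, with intervals that do not overlap. In NOD it had 0, 15 and 34 UMIs, at 18.4 CPM (10.3 to 30.4) in the middle and 11.7 CPM (8.08 to 16.3) in the high group, intervals that overlap. The 0 in the low group allows up to 14.0 CPM. *Trim34b* in CD1 was 14.7, 17.3 and 34.1 CPM, and in the high group its log2 ratio was −1.43 [−1.98, −0.91].

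**Figure D4:**
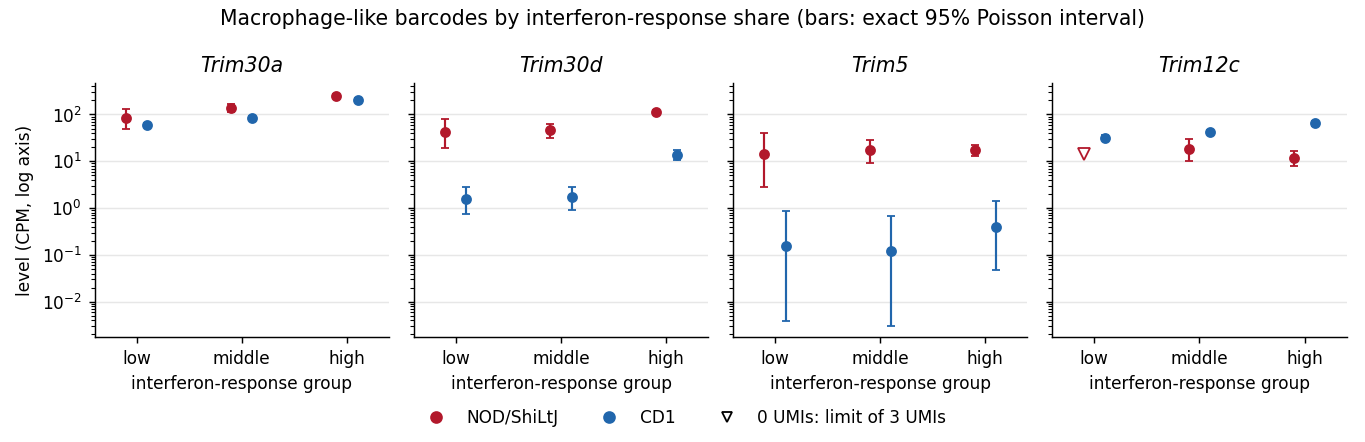
Level (CPM, log axis) of 4 genes in macrophage-like barcodes divided into 3 parts by their interferon-response share, NOD/ShiLtJ in red and CD1 in blue, with exact 95% Poisson intervals and the limit of 3 UMIs as an open triangle. *Trim30a* is higher from the low to the high group in both strains. *Trim5* in NOD lies between 14.0 and 17.2 CPM. With 3 UMIs in its low group (2.88 to 40.8 CPM), neither a rise nor its absence can be read.

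Over the 8 levels given by 4 classes and 2 strains (log2 of CPM + 10, 13602 genes), the genes whose pattern was most like *Trim5* were *Mzb1* (Pearson's r = 0.985), *Csnk2a1-ps3* (0.985), *Mndal* (0.984), *Gm32917* (0.973) and its neighbour *Trim34a* (0.969). Those most like *Trim30a* were *Gm53253* (0.968), *Mogat1* (0.957), *Trim30d* (0.954), *Gm1943* (0.944) and *Ighg2b* (0.939). *Trim5* and *Trim12c* had r = −0.89, and *Trim12c* and *Trim34b* 0.94. The 4 levels of a strain come from 1 library, so these are descriptions with no test.

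Classes too small in CD1 for a comparison are given as levels. The 861 NOD B-like barcodes held *Trim30a* at 123 CPM, *Trim30d* at 55.9, *Trim5* at 33.8 (160 UMIs), *Trim34a* at 26.8 and *Trim12c* at 17.7. The NOD empty droplets held *Trim30a* at 134.5 CPM, above the B-like level. The 61 NOD fibroblast-like barcodes held *Trim5* at 30.6 CPM (19 UMIs), *Trim30d* at 40.2 (25 UMIs) and *Trim12c* at 25.7 (16 UMIs), and the 18 CD1 fibroblast-like barcodes held 0, 0 and 11 UMIs of these. A CD1 count of 0 there allows up to 19.9 CPM, so that NOD was at least 1.53-fold higher for *Trim5* and 2.02-fold for *Trim30d*. Fibroblast-like barcodes held *Trim30a* at 120.6 CPM (75 UMIs) in NOD and 13.3 CPM (2 UMIs) in CD1. In the 53 NOD and 13 CD1 plasma-like barcodes *Trim5* had 9 and 0 UMIs, *Trim30d* 26 and 0 and *Trim12c* 7 and 13, and a CD1 count of 0 there allows up to 5.85 CPM. T-cell markers were present in NOD macrophage-like barcodes at 60.6 CPM against 7.03 in CD1, and in endothelial-like barcodes at 87.3 against 4.05. All 8 T markers were detected in both classes of NOD, and in CD1 8 in macrophage-like and 7 in endothelial-like barcodes. Their part in the levels above was not tested.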

How the data were processed

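The deposited counts are UMI counts per gene and barcode, which per the file headers and the submitters' processing notes the authors made with Cell Ranger 8.0.0, with no cell filter or scaling in these files. The notes also name the build GRCm39, Seurat 5.0.1 and R 4.3.1. The NOD library held 52790319 UMIs and the CD1 library 56483149. Barcodes with at least 500 UMIs and 300 genes were kept, and those with 10 to 100 UMIs served as empty droplets. A barcode took the class (of 12) with the most marker UMIs, given at least 3 UMIs of 2 markers and 75% of all marker UMIs. Doublets were removed only in an alternative. UMIs were summed by class and strain, with exact Poisson, binomial and Clopper-Pearson intervals at 95% (scipy). No test was possible with single libraries, and 2-fold was used as the limit for a call, among genes with at least 20 UMIs. A count of 0 was given a limit of 3 UMIs. Genes were named by rule: the 7 listed genes, the other *Trim* genes of the locus, the 3 highest and lowest of each list, flanking genes past 2-fold, and the 5 genes most like *Trim5* and *Trim30a*. The genes and lists were chosen with earlier results of these data known, and the sums over *Trim34a* and *Trim34b* after their values were seen. Gene order, promoters and transcripts are of GRCm38 (RefSeq GRCm38.p6 and GENCODE M21), used for neighbours and sequences only. The ratio step was tested on simulated counts with known folds. The class step was run only on made-up profiles that held the markers of a single class. That run cannot show how barcodes with mixed markers or free RNA are classed.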

Additional observations from a re-analysis of the deposited data

Results flagged for a closer look

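A signal was also present in barcodes that enter none of the comparisons, because their marker UMIs were few or pointed to several classes. The 1594 such NOD barcodes held *Trim5* at 29.5 CPM, *Trim30a* at 180.0 CPM, *Trim30d* at 48.4 CPM and *Trim34a* at 26.2 CPM. The 761 such CD1 barcodes held *Trim5* at 0.352 CPM (2 UMIs), *Trim30a* at 88.9, *Trim30d* at 1.94 and *Trim34a* at 4.93 CPM. *Trim12c* stood at 18.9 CPM in these NOD barcodes and at 60.4 CPM in those of CD1, and *Trim34a* and *Trim34b* summed to 35.5 and 37.7 CPM.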

How the results depend on the processing

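No paired analysis was possible because each strain has 1 library. The alternatives were stricter minimums (1000 UMIs, 500 genes), at most 10% mitochondrial UMIs, removal of 338 NOD and 394 CD1 likely doublets, 90% purity, median-of-ratios scaling, equal weight for each barcode, subtraction of free RNA at 10% of UMIs, 3 C1q UMIs in macrophage-like barcodes and, for the counts of genes, a minimum of 5 UMIs. Of 39 log2 ratios, 37 kept their sign under each alternative that gave a value. The other 2 were the *Trim34a* and *Trim34b* sums in T-like (−0.56 to 0.05) and NK-like barcodes (−0.57 to 0, at 90% purity). *Trim5* ranged from 6.12 to 6.43 in macrophage-like and from 8.25 to 8.99 in endothelial-like barcodes. With few CD1 UMIs, *Trim5* in NK-like barcodes ranged from 4.91 to 7.19 and *Trim34a* in T-like barcodes from 1.83 to 3.32, both lowest at 90% purity and highest with equal weights. Weighting each macrophage-like barcode equally gave −2.49 for *Trim12c*, 0.72 for *Trim30a* and 0.84 for the 7 genes summed, against 1.17 in the main analysis, so that *Trim30a* then lay within 2-fold. The minimum of 5 UMIs raised the genes at least 2-fold higher in NOD from 1106 to 2170. Of the other 236 values, 4 left the 95% interval, among them *Trim30d* in endothelial-like barcodes, at 10.29 after free RNA subtraction, which left fewer than 3 CD1 UMIs. *Trim30b* (mitochondrial limit, macrophage-like) and *Trim12a* (doublets removed, endothelial-like) had no UMIs left in 1 strain. The sums over similar genes were put through these alternatives after their values were seen. The 75 CD1 T-like barcodes, 38 of them at 90% purity, and the pooling of mice limit what the ratios show.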
